A study of Mus musculus with 7 samples.

Results

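The genes described here encode Wnt ligands or secreted modulators of Wnt signalling and number 10: Wif1, Sfrp1, Sfrp2, Sfrp4, Dkk2, Dkk3, Notum, Rspo3, Wnt5a and Wnt16. They were found by gene name in the array files, which gave 11 probes for the 10 genes (2 for Wnt16 and 1 for each of the others), out of 55681 probes on the array and 19757 genes that could be tested. The genes had been chosen by their measured levels over the same arrays, so their levels and differences are given as a description and carry no test. The series hybridised RNA of 7 mouse cell populations to Agilent arrays of 60-base probes read in a single colour, with 1 array for each population, and its title places the cells in the dermis and asks whether dermal cells that can form muscle come from satellite cells, the stem cells of muscle. Cspg4+ cells came from mice with a Cspg4-cre transgene (B6,FVB-Tg(Cspg4-cre)1Akik/J) and carry no Sdc4 label; Cspg4 is the gene of NG2, a proteoglycan found on pericytes. The Sdc4+ group held Myf5SOR+ cells, whose mice carry Cre at the locus of the muscle regulator Myf5 (B6.129S4-Myf5tm3(cre)Sor/J), Cspg4- cells of the Cspg4-cre mice and cells of outbred Crl:CD1(ICR) mice. The Sdc4- group held B195AP+ cells, from a line named B195AP-Cre whose driver the labels do not name, with Cspg4- cells and CD1 cells. Sdc4 encodes syndecan-4, a surface proteoglycan found on satellite cells. The labels give 8 to 10 animals per phenotype and 10 to 200 ng of RNA as input, and they do not give age, or say how a reporter or a sort separated the cells.

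Wnt proteins are secreted, lipid-modified signals that bind Frizzled receptors and LRP co-receptors, and in the best known branch they stabilise beta-catenin. Cells shape this signal outside the membrane: WIF1 and SFRP proteins bind Wnts, DKK proteins act on the LRP co-receptors, NOTUM removes the lipid that Wnts need, and R-spondins strengthen the response through LGR receptors. In skin, Wnt signals act in the formation and growth of hair follicles, whose dermal papilla is a cluster of specialised fibroblasts.

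Levels are log2 signals relative to the 75th percentile of each array's probes, so a level of 0 equals that percentile and a difference of 1 is a 2-fold difference. A probe's own level cannot be set against that of another probe. Between 45.8% and 57.2% of non-control spots were well above background, the highest share being that of the Cspg4+ array, and the number of arrays limits the precision. Each population has 1 array, so the arrays of a group differ in line and its SD includes the line. All 3 Sdc4+ arrays were in slide row 1 and the other 4 arrays in slide row 2, so effects of the slide row and of Sdc4 cannot be told apart. Part of the B195AP+ array carried streaks of low signal: inside the first 200 spot rows and 130 spot columns 7.02% of bright spots lay over 4-fold from the other arrays, against 0.787% outside. Markers of dermal fibroblasts were well above background on every array, for 7 or 8 of 8 genes. Of 4 muscle progenitor genes, Pax7, Pax3 and Myf5 were not well above background on any array, and Myod1 was so on CD1 Sdc4- alone. Sdc4 itself was at 5.41 in Cspg4+ cells. Among Sdc4+ cells it was at 3.80 in Myf5SOR+, 6.29 in Cspg4- and 6.35 in CD1, and among Sdc4- cells at 1.98 in B195AP+, 5.11 in Cspg4- and 5.28 in CD1, so the groups overlapped. The Sdc4 probe has a spot in the streaked region of the B195AP+ array, and whether a streak lowered the 1.98 was not tested. The same order within a group is kept for every gene.

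Wnt16 is the only gene of the set with more than 1 probe, and the pair gave different patterns, so both sequences are shown. Both are 60 bases long and lie on the plus strand of chromosome 6 (mm9, per the file headers), with starts 6669 bases apart, and each has 45% G and C. No exon annotation of that build was used here.
Wnt16 first probe, chr6:22247804-22247863: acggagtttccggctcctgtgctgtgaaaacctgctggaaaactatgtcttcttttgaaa
Wnt16 second probe, chr6:22241135-22241194: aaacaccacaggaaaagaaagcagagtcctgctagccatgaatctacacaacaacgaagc
The second probe lies upstream of the first, and no base is marked in either.

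Wif1, the secreted Wnt inhibitory factor that binds Wnt proteins directly, varied most among the 10 genes, with 71.2-fold between its highest and its lowest array (chr10:120537079-120537138, mm9). Its level was 5.96 on the Cspg4+ array, -0.19, 2.92 and 5.42 on the Sdc4+ arrays and 3.45, 5.41 and 5.44 on the Sdc4- arrays. These stand for processed intensities of 11028 on Cspg4+, of 113, 969 and 10343 on Sdc4+ and of 1743, 7559 and 9224 on Sdc4- arrays. Cspg4+, both CD1 arrays and Cspg4- Sdc4- thus lay within 0.55 of each other at the top, Myf5SOR+ cells were lowest, and the groups overlapped. Wif1 was 4.16-fold lower in Sdc4+ cells, with means of 2.71 ± 2.81 against 4.77 ± 1.14 in Sdc4- cells (SD, n = 3 each). Without the Myf5SOR+ array the log2 difference was -0.60 in place of -2.05. Within the Cspg4- cells Wif1 was 5.63-fold lower in the Sdc4+ fraction, while in CD1 the fractions differed by -0.03, a value that took the other sign under 3 other scalings.

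**Figure D1:**
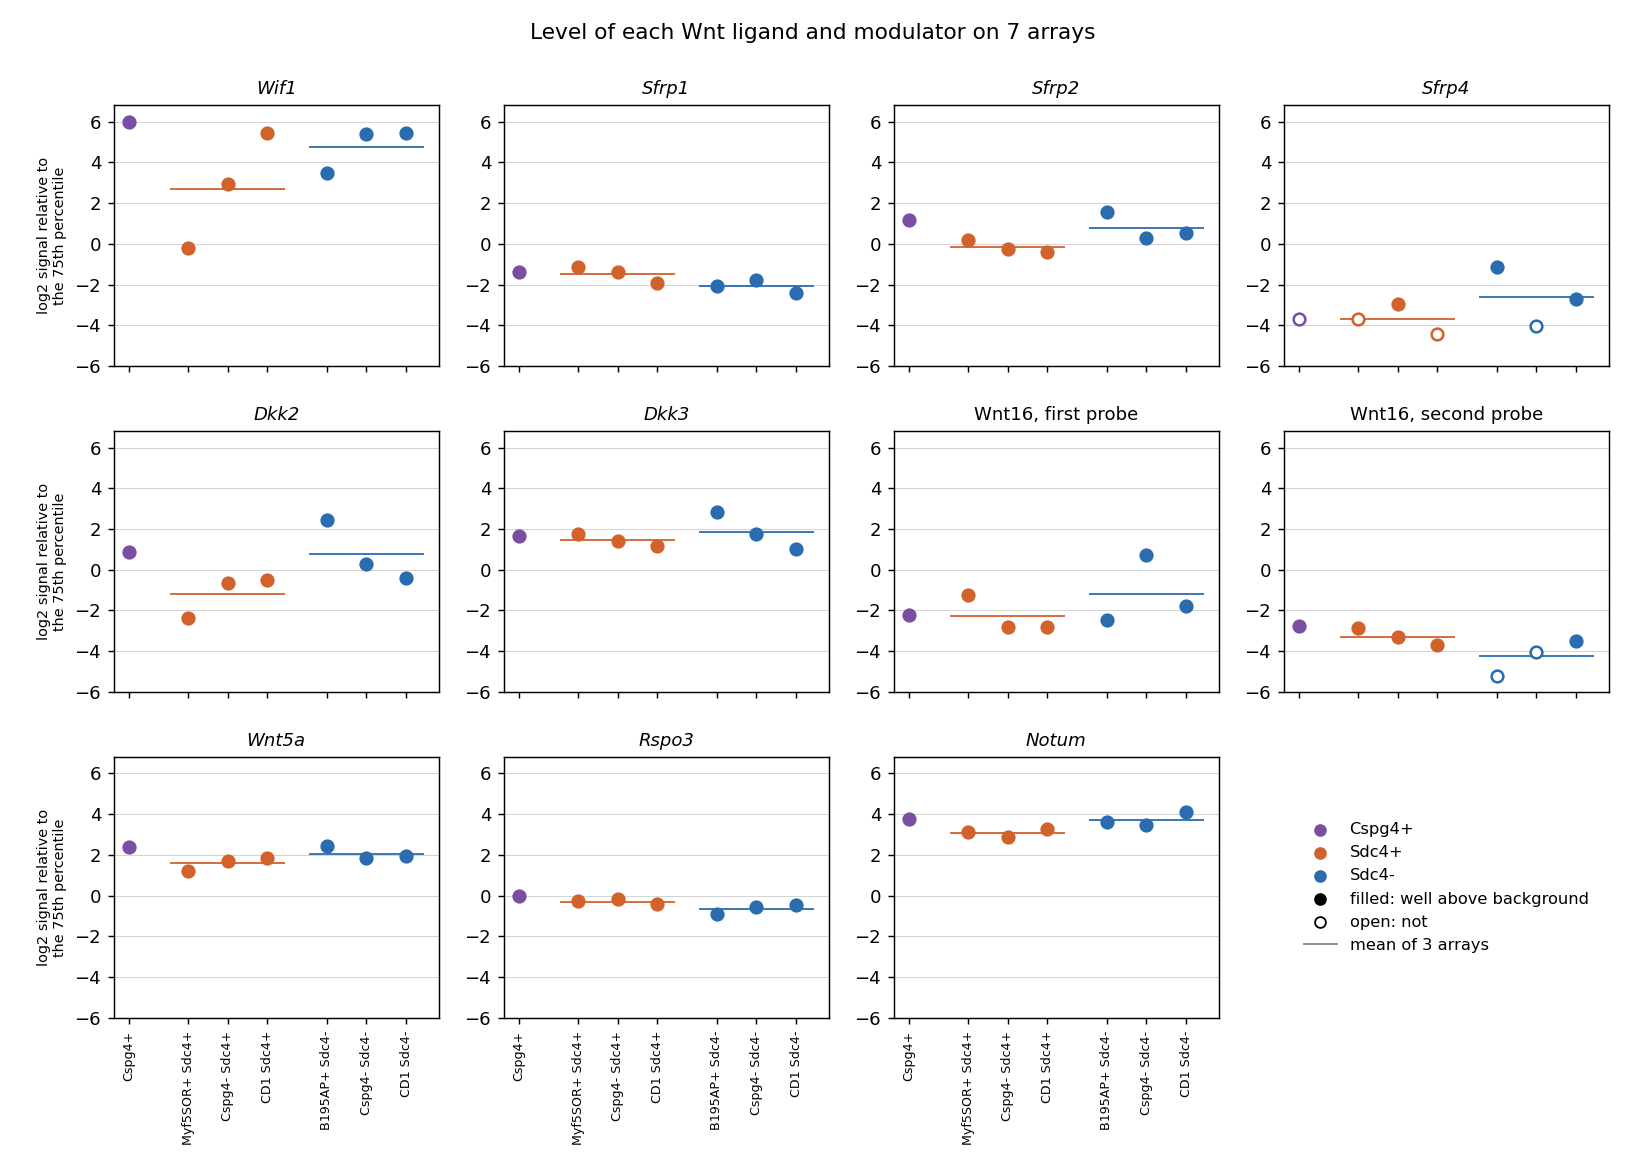
Log2 signal of each probe relative to the array's 75th percentile (vertical axis) on the 7 arrays (horizontal axis: Cspg4+, then the 3 Sdc4+ and the 3 Sdc4- arrays); filled points are well above background, open points are not, and lines are means of 3 arrays. Wif1 spans -0.19 to 5.96, whereas Rspo3 spans -0.91 to -0.01.

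The Sfrp genes encode secreted Frizzled-related proteins, which carry a Frizzled-like domain and bind Wnts. Sfrp2 (chr3:83577864-83577923) was at 1.18 on the Cspg4+ array, at 0.17, -0.26 and -0.40 on the Sdc4+ arrays and at 1.57, 0.27 and 0.51 on the Sdc4- arrays. Every Sdc4+ array was below every Sdc4- array, by a gap of 0.097 between the nearest 2. Sfrp2 averaged -0.16 ± 0.30 in Sdc4+ and 0.78 ± 0.69 in Sdc4- cells (SD, n = 3 each), 1.93-fold lower in Sdc4+ cells, and the difference within a line was -0.53 in Cspg4- cells and -0.91 in CD1. Without the B195AP+ array the log2 difference between the groups was -0.55 in place of -0.95. Sfrp1 (chr8:24559438-24559497) had levels of -1.40 on the Cspg4+ array, of -1.13, -1.37 and -1.95 on the Sdc4+ arrays and of -2.07, -1.76 and -2.41 on the Sdc4- arrays. Its mean difference was 0.60, in the direction opposite to that of Sfrp2, with overlap between the groups, and it was 0.39 in Cspg4- cells and 0.46 in CD1.

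Sfrp4 (chr13:19724488-19724547) was near the floor of detection, being well above background on 3 of the 7 arrays. Those were Cspg4- Sdc4+ at -2.96, B195AP+ Sdc4- at -1.16 and CD1 Sdc4- at -2.69. It was not well above background on the Cspg4+ array (-3.70), on Myf5SOR+ Sdc4+ (-3.71), on CD1 Sdc4+ (-4.45) or on Cspg4- Sdc4- (-4.04). By the processed intensities Sfrp4 was at least 1.94-fold higher in the Sdc4+ fraction in Cspg4- cells, and in CD1 at least 3.0-fold lower. These bounds depend on the processing. After normexp background correction the log2 differences were 0.43 and -0.47, smaller than the bounds. Each such bound sets the brighter array against the lowest signal that counted as well above background on the dimmer one, or against the probe's own signal where that was higher.

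Dkk2 and Dkk3 encode members of the Dickkopf family, of which DKK2 binds the LRP co-receptors and DKK3 is an atypical relative. Dkk2 (chr3:131842357-131842416) was at 0.86 on the Cspg4+ array, at -2.37, -0.64 and -0.50 on the Sdc4+ arrays and at 2.44, 0.28 and -0.40 on the Sdc4- arrays. The 2 groups did not overlap, although CD1 Sdc4+ and CD1 Sdc4- cells were only 0.097 apart, and the 28.1-fold range was set by Myf5SOR+ cells at the low end and B195AP+ cells at the high end. Dkk2 was 3.85-fold lower in Sdc4+ cells, with means of -1.17 ± 1.04 against 0.77 ± 1.48 in Sdc4- cells (SD, n = 3 each). Without the B195AP+ array the log2 difference was -1.11 in place of -1.94, and within Cspg4- cells it was -0.92. Dkk3 (chr7:119259556-119259615) was at 1.64 on the Cspg4+ array, at 1.77, 1.39 and 1.19 on the Sdc4+ arrays and at 2.82, 1.76 and 1.03 on the Sdc4- arrays. Here the CD1 arrays held both the lowest Sdc4+ and the lowest Sdc4- value, the groups overlapped, and the difference was -0.37 in Cspg4- cells and 0.16 in CD1. The mean difference of Dkk3 was -0.42, and 0.06 without the B195AP+ array.

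Notum, which encodes the carboxylesterase that inactivates Wnts (chr11:120515209-120515268), had levels of 3.78 on the Cspg4+ array, of 3.11, 2.87 and 3.26 on the Sdc4+ arrays and of 3.62, 3.49 and 4.10 on the Sdc4- arrays. All 3 Sdc4+ arrays were below all 3 Sdc4- arrays, with a gap of 0.23, the widest of the members whose groups did not overlap. Notum averaged 3.08 ± 0.20 in Sdc4+ and 3.74 ± 0.32 in Sdc4- cells (SD, n = 3 each), 1.58-fold lower in Sdc4+ cells, with -0.62 in Cspg4- cells and -0.84 in CD1. Notum and Sfrp2 were the 2 genes of the set for which the groups did not overlap and both lines differed by more than 0.5 in the same direction.

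Rspo3 encodes R-spondin 3, which strengthens Wnt signalling (chr10:29172930-29172989). It was at -0.01 on the Cspg4+ array, at -0.27, -0.17 and -0.42 on the Sdc4+ arrays and at -0.91, -0.53 and -0.46 on the Sdc4- arrays. The Sdc4+ arrays were all higher, but the gap was 0.040 and the mean difference 0.35, or 1.27-fold, with 0.36 in Cspg4- cells and 0.04 in CD1. Wnt5a, a ligand best known for signalling without beta-catenin (chr14:29336664-29336723), was at 2.38 on the Cspg4+ array, at 1.20, 1.72 and 1.86 on the Sdc4+ arrays and at 2.42, 1.83 and 1.93 on the Sdc4- arrays. Its groups overlapped by 0.025 and its differences within Cspg4- cells and CD1 were -0.11 and -0.07. After normexp background correction the CD1 differences of Rspo3 and Wnt5a were -0.04 and 0.02, with the other sign.

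Wnt16 encodes a further ligand of the family, and the first probe showed 1 high array. That probe was at -2.23 on the Cspg4+ array, at -1.24, -2.79 and -2.79 on the Sdc4+ arrays and at -2.49, 0.70 and -1.80 on the Sdc4- arrays. The Cspg4- Sdc4- array stood 3.84-fold above the next highest array, and Cspg4- Sdc4+ cells were 11.3-fold below it. The mean difference between Sdc4+ and Sdc4- arrays was -1.08, and -0.13 without that array. The second probe was at -2.77 on the Cspg4+ array, at -2.84, -3.31 and -3.70 on the Sdc4+ arrays and at -5.20, -4.04 and -3.52 on the Sdc4- arrays, of which B195AP+ and Cspg4- were not well above background. It therefore gave its second lowest value where the first probe gave its highest. By the second probe Wnt16 in Cspg4- cells was at least 1.52-fold higher in the Sdc4+ fraction by the processed intensities. The log2 difference was 0.73 there and 0.34 after normexp background correction, smaller than that bound. Over the 7 arrays the patterns of the probes had a Pearson r of -0.02, with 2 of the second probe's values not well above background.

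The place of the spots was recorded beside this. The first Wnt16 probe sits in spot row 11 of 384. On the Cspg4- Sdc4- array 77 other probes were well above background and over 4-fold above every other array, and 39 of them (50.6%) lay in the first 30 spot rows, which hold 8.16% of all probes. On the other 6 arrays the same share was between 1.25% and 28.4%. Of these 77 probes, 2 lay within 3 rows and 3 columns of the first Wnt16 probe. The same held for 2 of 1857 such probes on Cspg4+, 2 of 211 on B195AP+ and 1 of 121 on CD1 Sdc4-. The limits of 4-fold and 30 rows were set after the data were seen, and whether the position had a part in the high Wnt16 value was not tested. The second probe has its own limit on the B195AP+ array, where 4 of its 17 neighbouring spots were over 4-fold lower than on the other arrays. Among the 10 genes, Wnt16, Wif1, Dkk2, Rspo3 and Notum have spots in the streaked region of that array. For each except the second Wnt16 probe 0 neighbours counted in that way were over 4-fold lower. A neighbour that a streak dimmed to background was left out of the count, so the 0 cannot show that these spots are free of streaks.

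**Figure D2:**
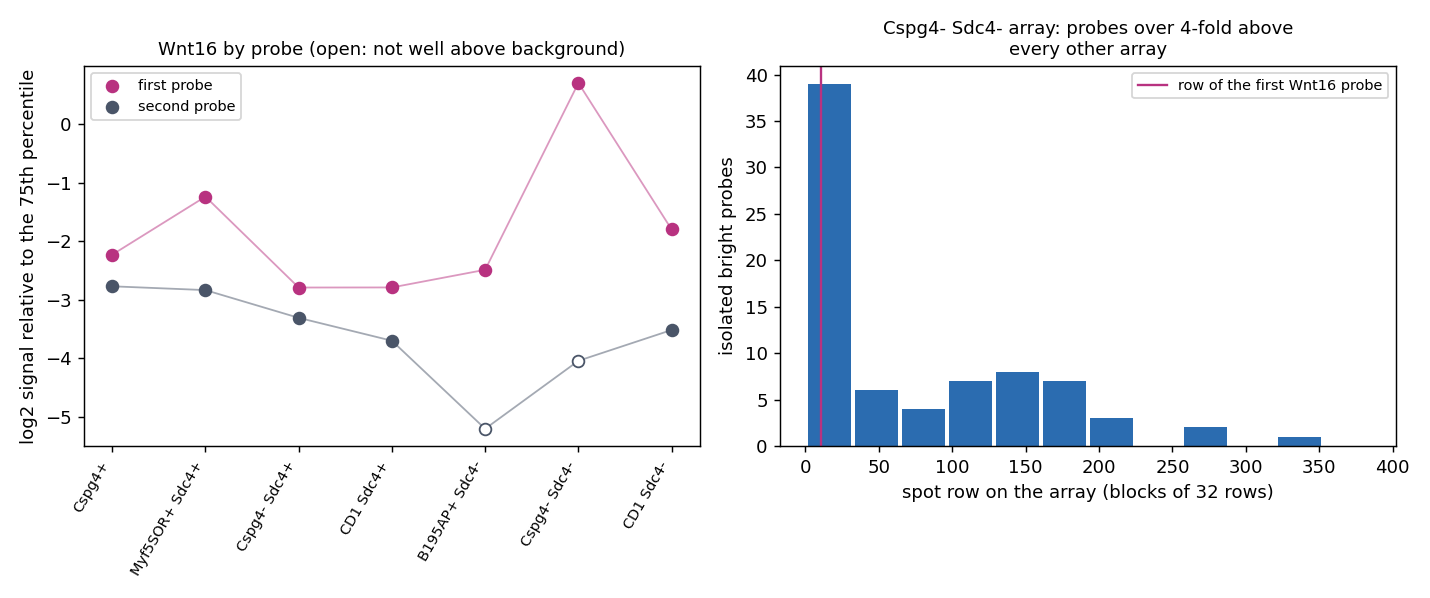
Left, log2 signal of both Wnt16 probes relative to the array's 75th percentile on each array, with open points not well above background; right, number of probes on the Cspg4- Sdc4- array that were over 4-fold above every other array, by blocks of 32 spot rows, with the row of the first Wnt16 probe as a line. The first probe has its highest value, 0.70, on the Cspg4- Sdc4- array, where the second is not well above background, and 39 of the 77 isolated bright probes lie in the first block.

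Between the Sdc4+ and Sdc4- groups 3 of the 10 genes were lower in all 3 Sdc4+ arrays than in any Sdc4- array (Sfrp2, Dkk2 and Notum), where 9.74% of all genes were. One gene, Rspo3, was higher without overlap, where 6% of all genes were. The limma fit over all genes called 0% of 19757 genes for Sdc4+ over Sdc4- at a Benjamini-Hochberg adjusted p of 0.05, and 1719 genes had an unadjusted p under 0.05. The median difference of the 10 genes was -0.80 and that of all genes tested -0.06. In Cspg4- cells the measured signal of Sfrp4 was over 2-fold higher in the Sdc4+ fraction, where that of 4.91% of all genes was, although its bound over background was 1.94-fold, and Wif1 and Wnt16 by its first probe were at least 2-fold lower, where 3.85% were. In CD1 no gene of the set was at least 2-fold higher, where 1.98% of all genes were, and Sfrp4 was at least 2-fold lower, where 2.65% were. No gene of the set was therefore at least 2-fold different in the same direction in both lines, although Wnt16 by its first probe came near it, with -3.49 in Cspg4- cells and -0.99 in CD1. The difference between fractions was larger in size in the Cspg4- cells for 6 genes (Wif1, Dkk2, Dkk3, Wnt16, Wnt5a and Rspo3) and in CD1 for 4 (Sfrp1, Sfrp2, Sfrp4 and Notum), which was not tested with 1 array on each side.

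**Figure D3:**
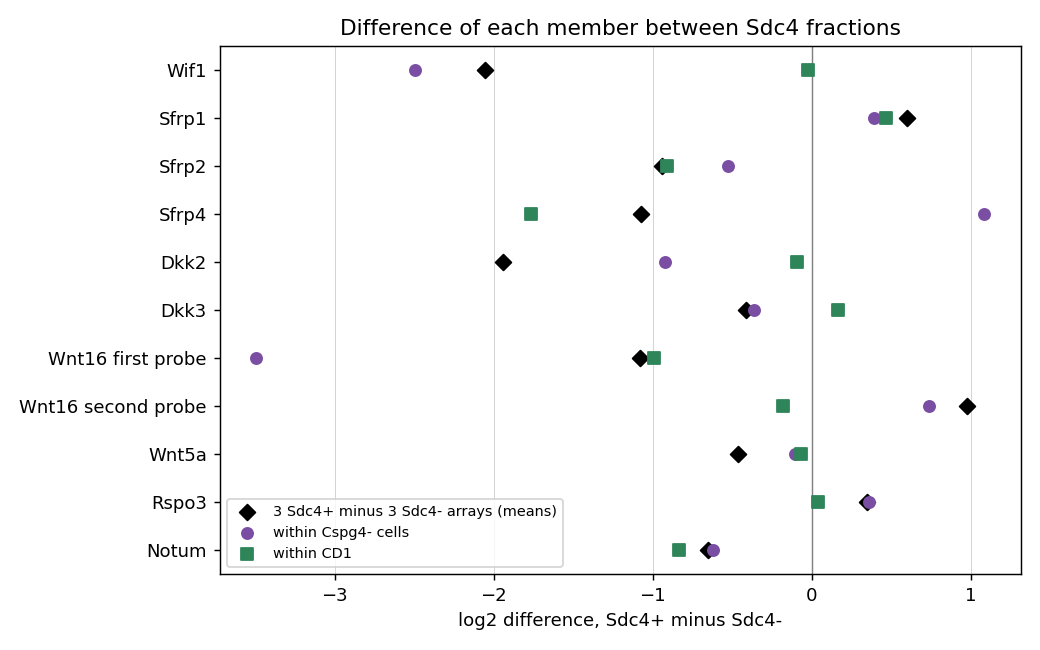
Log2 difference of Sdc4+ minus Sdc4- (horizontal axis) for each probe: diamonds are means of 3 arrays on each side, circles the difference within Cspg4- cells and squares that within CD1, 1 array on each side. Sfrp4 and the second Wnt16 probe lie on opposite sides of 0 in the 2 lines, and Wif1 is at -2.49 in Cspg4- cells and -0.03 in CD1.

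The summed levels of 5 of 11 marker lists, linear and in units of the array's 75th percentile, also separated the Sdc4+ from the Sdc4- arrays. Of all single genes 6% were higher and 9.74% lower in Sdc4+ cells without overlap. Such a sum adds the signals of different probes, so a gene's share of it is a share of signal and not of RNA. The 9 dermal papilla genes, of which Sox2 and Corin are defining ones, summed to 248 on the Cspg4+ array, to 125 to 185 on the Sdc4+ arrays and to 221 to 252 on the Sdc4- arrays. Crabp1 alone made up 86.4% to 94.0% of that sum, and the other 8 genes summed to 17.8 on Cspg4+, to 14.4 to 17.1 on Sdc4+ and to 15.1 to 17.8 on Sdc4- arrays, with overlap. Of the 9 genes 6 were lower and 1, Tbx18 (0.83), was higher without overlap in Sdc4+ cells, where 9.74% and 6% of all genes were, and Prom1 differed by 0.64 with overlap. Sox2 and Corin were not well above background on any Sdc4+ array. The papilla genes well above background numbered 9 on Cspg4+, 6 to 7 on Sdc4+ and 8 to 9 on Sdc4- arrays. Striated muscle genes, 8 in number, summed to 1.46 on the Cspg4+ array, to 0.261 to 0.514 on the Sdc4+ and to 4.26 to 24.4 on the Sdc4- arrays, and 0 to 4 of them were well above background on Sdc4+ arrays, against 8 on each Sdc4- array. Melanocyte genes summed to 34.8 to 43.3 on Sdc4+ and 18.3 to 33.1 on Sdc4- arrays, of which Mitf made up at least 97.8%, and their sums without Mitf overlapped. Endothelial genes summed to 11.2 to 16.5 on Sdc4+ and 16.7 to 18.9 on Sdc4- arrays, of which Kdr made up at least 97.5%, and Tek and Emcn were not well above background on any of the 6. Without Kdr the endothelial sums did not overlap (0.238 to 0.276 on Sdc4+ and 0.310 to 0.449 on Sdc4- arrays). Keratinocyte genes summed to 5.55 to 5.72 on Sdc4+ and 5.76 to 8.26 on Sdc4- arrays, and their sums without Trp63 overlapped. Their part in the differences of the Wnt genes was not tested. In bulk RNA fewer cells of a type and less RNA per cell cannot be told apart.

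The single Cspg4+ array was set against both Cspg4- fractions of its line, which share that array. On it 1857 probes were well above background and over 4-fold above every other array, against 29 to 211 on the other arrays. Whether this raised dim probes there was not tested. Wif1 was 8.25-fold, Dkk2 2.82-fold and Sfrp2 2.71-fold higher in Cspg4+ than in Cspg4- Sdc4+ cells, 3 genes of the set where 6.34% of all genes were at least 2-fold higher. None of the 10 was at least 2-fold lower, where 4.86% of all genes were, but for Sfrp4 this depended on the scaling. Sfrp4, not well above background on the Cspg4+ array, differed by -0.75. The value was -1.82 with quantile normalization, -1.49 under scaling on the median, -1.56 in the series table and -0.38 after normexp correction. Against Cspg4- Sdc4- cells no gene was at least 2-fold higher, where 3.63% of all genes were, and Wnt16 by its first probe was 7.64-fold lower, where 1.88% were. By the second probe it was at least 2.21-fold higher by the processed intensities, so the direction of Wnt16 in this comparison depends on the probe. The second probe's measured difference of 1.27 was 0.28 after normexp correction, 0.49 under scaling on the median and 0.52 in the series table. Under scaling on the array median the median difference of all genes was -0.71 against Cspg4- Sdc4- and -0.69 against Cspg4- Sdc4+ cells, in place of 0.07 and 0.05 under the 75th percentile. With that scaling Sfrp2 was 0.12 above Cspg4- Sdc4- and 0.70 above Cspg4- Sdc4+ cells, in place of 0.91 and 1.44. Wif1 and Dkk2, which were 0.55 and 0.58 above Cspg4- Sdc4- cells, were then at -0.23 and -0.21. Sfrp1, Wnt5a, Rspo3 and Notum, higher in Cspg4+ than in Cspg4- Sdc4- cells by 0.36, 0.54, 0.52 and 0.29, also had the other sign with it (-0.43, -0.24, -0.26 and -0.49). Against Cspg4- Sdc4+ cells Wif1 and Dkk2 stayed higher with it (2.31 and 0.76). In the limma fit 0% of genes passed for Cspg4+ over Sdc4- and 0% for Cspg4+ over Sdc4+, with 716 and 1530 genes at an unadjusted p under 0.05.

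The spread over the 7 arrays differed among the genes. The SD of Wif1 (2.20) exceeded that of 99.7% of all genes, that of Dkk2 (1.48) 98.1%, that of Wnt16 by its first probe (1.24) 96.2% and that of Sfrp4 (1.1) 94.5%. For Sfrp4, well above background on 3 of the 7 arrays, the SD includes signals near the floor. Wnt5a (0.41), Notum (0.42) and Rspo3 (0.29) lay near the median gene, whose SD was 0.35. B195AP+ cells held the highest value for 5 of the 10 genes, Sfrp2, Sfrp4, Dkk2, Dkk3 and Wnt5a, and they also held it for 38.5% of all genes. Myf5SOR+ cells held the lowest value for Wif1, Dkk2 and Wnt5a, and for 12.3% of all genes. Dkk2 and Wnt5a had the closest pattern within the set, with a Pearson r of 0.94 over the 7 arrays.

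Genes outside the set were ranked by Pearson r with each probe over the 7 arrays, among genes that varied at least 0.5 times as much as the member. With so few arrays and so many genes the values are given as a description. Wif1 ran closest to Sapcd1 (r = 0.97) and Lamc3, a laminin chain (r = 0.96). Sapcd1 was at 3.18 on Cspg4+, at -0.17, 1.72 and 2.51 on Sdc4+ and at 1.49, 2.66 and 3.36 on Sdc4- arrays, with Myf5SOR+ cells lowest as for Wif1. Notum ran closest to Mgarp (0.99) and Elmod2 (0.97), Sfrp2 to Bola1 (0.99) and Nudt5 (0.98), Sfrp1 to Rhoj (0.99) and Rnf13 (0.98). Dkk2 ran closest to Heph (0.95) and Sh3gl3 (0.94), Sfrp4 to Acta2, the smooth muscle actin (0.96), and Adm2 (0.94). Because Sfrp4 was well above background on only 3 of the 7 arrays, its r values rest largely on signals near the floor. Dkk3 ran closest to Gcdh (0.99) and Alg8 (0.98), Wnt5a to Klhl11 and Cenpj (0.98 each), and Rspo3 to Inca1 and Sgtb (0.95 and 0.95). The first Wnt16 probe ran closest to Ccdc103 (0.88) and Stard10 (0.75), each by a probe in spot row 24. Those probes had their highest level, 0.71 and 0.73, on the Cspg4- Sdc4- array. Another Ccdc103 probe, in spot row 191, was not well above background on any array and was at -4.44 on Cspg4- Sdc4-. The second Wnt16 probe, well above background on 5 of the 7 arrays, ran closest to Zkscan14 (0.97) and Ccn5 (0.96).

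Of 99 other Wnt pathway genes listed, 67 could be tested, and 0 passed the limma test in any of the 3 contrasts. Their median Sdc4+ minus Sdc4- difference was -0.04 against -0.06 for all genes. At an unadjusted p under 0.05, 3 (4.48%) were higher and 5 (7.46%) were lower in Sdc4+ cells, where 3.28% and 5.42% of all genes were, so these shares are close to the background. Of the 67 genes 4 were higher and 6 lower without overlap, where 6% and 9.74% of all genes were, also close to the background. The other secreted modulators, of which 5 of 13 could be tested, had a median of -1.01. All 5 had a negative difference, where 11179 of all 19757 genes tested had one. Rspo4, a further R-spondin, differed by -2.46 without overlap, with means of -2.92 ± 1.69 in Sdc4+ and -0.46 ± 0.41 in Sdc4- cells (SD, n = 3 each; limma adjusted p = 0.516). Rspo4 was not well above background on Myf5SOR+ Sdc4+ (-4.85), so its difference and SD include a signal near the floor. Ndp, the Frizzled-4 ligand norrin, which is also in the papilla list, differed by -1.34 and Igfbp4, a binding protein of insulin-like growth factors, by -1.01 (limma adjusted p = 0.506 and 0.511). Among 19 receptors and membrane regulators tested, the median was -0.04. Ryk, a Wnt co-receptor, differed by 0.95 and Lgr4, a receptor of R-spondins, by 0.99, both without overlap (limma adjusted p = 0.516 for each). The Ryk probe has a spot in the streaked region of the B195AP+ array. Lgr4 was well above background on 5 of the 7 arrays, but not on B195AP+ Sdc4- (-4.60) or CD1 Sdc4- (-3.95). The 7 other ligands tested had a median of -0.11 and no gene without overlap. Among 23 intracellular genes Dvl3, which relays the signal from Frizzled, differed by -0.63, the beta-catenin cofactors Bcl9 and Bcl9l by -0.66 and 0.59 and Tnks, which acts on axin turnover, by -0.26, each without overlap.

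Of 16 target genes 11 could be tested, with a median difference of 0.05. Axin2, the target most often used as a readout, was well above background on CD1 Sdc4+ alone, by 1 of its 2 probes (-3.83), and so could not be tested. Lef1, a transcription factor and target of the pathway, was at 0.44 on the Cspg4+ array, at -1.31, -0.45 and 0.77 on the Sdc4+ arrays and at 0.04, 0.13 and 0.38 on the Sdc4- arrays by its brighter probe, with overlap. Its difference was -0.51 by that probe and -0.27 by the other. Myc, a target in several tissues, differed by 0.37 without overlap (limma adjusted p = 0.682), by a probe with a spot in the streaked region of the B195AP+ array.

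**Figure D4:**
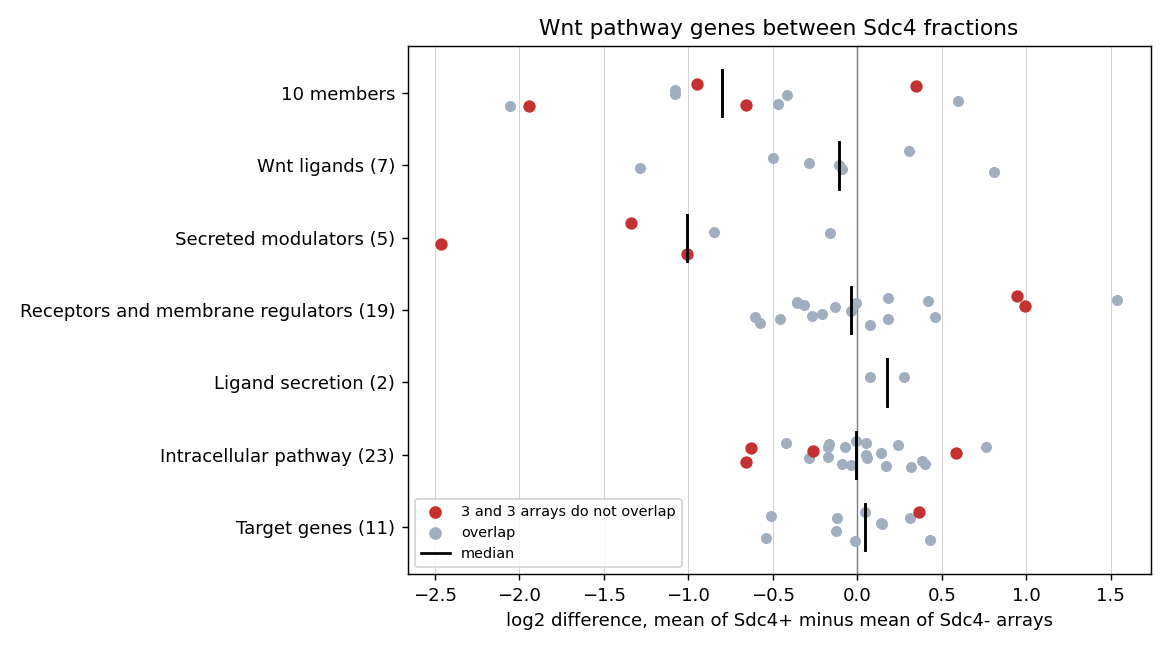
Log2 difference of the Sdc4+ minus the Sdc4- mean (horizontal axis) for the 10 genes (Wnt16 by its first probe) and for 67 other pathway genes by list, with the number of genes tested in brackets; red points are genes whose 3 and 3 arrays do not overlap and bars are medians. The median is -0.80 for the 10 genes, which were chosen by their levels, and -0.04 for the receptors.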

How the data were processed

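The authors deposited 1 scanner file per array with fluorescence intensity per spot, which per the file headers came from Feature Extraction 11.5.1.1; the processed intensity is background-subtracted and not normalized between arrays. A deposited series table of log2 values served as an alternative; the submitters' processing notes name lumi, and its centring and version stay unknown here. The main values are the log2 of the processed intensity less each array's 75th percentile. Control spots were dropped, outlier spots set to missing and spots of a probe averaged. Each gene took the probe of highest mean among probes well above background on at least 3 of 7 arrays. A limma 3.58.1 fit (R 4.3.3) had 3 group means and Benjamini-Hochberg adjustment at 0.05 and was tested on simulated data. The simulated noise was independent and had no differences between lines, so it cannot show what the fit could detect here. P-values measure only how arrays of a group, each of another line, vary, and the lone Cspg4+ array is assumed to vary like the others. Named genes were the members, pathway genes without overlap, Axin2, Lef1 and the 2 nearest genes per probe. Members, gene lists and the streaked region were chosen with earlier results of these data known. Alternatives were background correction, scaling, the series table, the filter, every probe, the line as a block, the streaked region and each Sdc4+ or Sdc4- array left out.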

Additional observations from a re-analysis of the deposited data

Results flagged for a closer look

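Sfrp4, Dkk3 and the second Wnt16 probe had a Sdc4+ minus Sdc4- difference of opposite sign in the Cspg4- cells and in CD1. The gap between the 2 lines was 2.84 log2 units for Sfrp4 (1.08 in Cspg4- cells and -1.76 in CD1, with 1 of the 2 arrays of each line not well above background). It was -0.53 for Dkk3 (-0.37 in Cspg4- cells and 0.16 in CD1). For the second Wnt16 probe it was 0.92 (0.73 in Cspg4- cells, where the Sdc4- array was not well above background, and -0.18 in CD1). With 1 array per population, none of these differences between lines was tested.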

How the results depend on the processing

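Of 297 values of members recomputed under alternatives, 277 moved by less than the spread between arrays and 20 moved by more; 23 changed sign, 12 of them Cspg4+ comparisons scaled on the median. The Wnt16 difference in Cspg4- cells by the first probe was -1.86 and the Sfrp4 difference in CD1 -0.47 after normexp correction. Members higher without overlap numbered 0 after normexp correction; members lower without overlap numbered 2 to 4 over the alternatives and 3 without the B195AP+ array. Genes passing for Sdc4+ over Sdc4- numbered 1 with every probe as its own row and 5 with the line as a random block, and 0 to 1 with each Sdc4+ or Sdc4- array left out in turn, the 1 being without CD1 Sdc4-. For Cspg4+ over Sdc4- they numbered 1 in the series table, 2484 with no filter (3 pathway genes among them) and 10 with the random block. For Cspg4+ over Sdc4+ they numbered 27 in the series table, 2421 with no filter (5 pathway genes) and 80 with the random block. The cause was not tested. Every array is labelled replicate 1, so numbers pair no samples; with the line, which the Cspg4- and CD1 arrays share, as a fixed block 0 genes passed limma in each contrast (1140 to 2394 had an unadjusted p under 0.05), with 1 residual degree of freedom. Signal over background limits Sfrp4, the second Wnt16 probe, Axin2, Rspo4, Igfbp4 and Lgr4.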
